A study of Homo sapiens with 12 samples.

Results

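The TNF receptor superfamily members described here were 10 genes, TNFRSF19, TNFRSF1A, TNFRSF10A, TNFRSF10B, TNFRSF10D, TNFRSF12A, TNFRSF21, TNFRSF25, FAS and LTBR, of the 54127 genes listed in the count data. They were taken as a named list of TNF receptors, chosen with knowledge of, and in part selected on, their expression in the PBKi against DMSO comparison of these libraries, and each symbol was matched to its Ensembl gene identifier. All 10 were among the 14505 genes that passed the filter on low counts. The values of the 10 receptors in this contrast are therefore a description, and no p-value is given for them.

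RNAseq was performed on C4-2, a prostate cancer (PrCa) cell line that descends from LNCaP and responds to androgen, grown in RPMI with foetal bovine serum. Of 12 libraries, 6 came from cells given DMSO vehicle and 6 from cells given PBKi, also named HI-TOPK-032, a small molecule that blocks the catalytic activity of the kinase PBK, at 1 µM for 6 h. The model is a single cell line with a single compound at a single dose and time. The labels number the replicates of each group from 1 to 6 and do not say that they came from separate cultures, so p-values measure the spread between these libraries, which may be technical.

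TNF receptors are transmembrane proteins with cysteine-rich repeats that bind trimeric ligands of the TNF superfamily. Those with a cytoplasmic death domain, such as TNFRSF1A, FAS, TNFRSF10A, TNFRSF10B, TNFRSF21 and TNFRSF25, can recruit FADD or TRADD and caspase-8, whereas those without one, such as TNFRSF12A, LTBR and TNFRSF19, bind TRAF proteins and signal to NF-kB and JNK. TNFRSF19, also called TROY, is known from skin, hair follicle and nervous system, and as a gene that responds to Wnt signalling.

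Depth was 9663203 to 28029908 reads on genes per library in DMSO and 13122415 to 22817803 in PBKi. The share of reads outside genes ranged over 5.74% to 6.96% for DMSO libraries and 5.94% to 9.30% for PBKi libraries, and PBKi replicate 3 had the top value. Reads that fell on more than 1 gene, which the counting left out, were a further 3.87% to 4.10% for DMSO and 4.16% to 4.35% for PBKi, and these ranges did not overlap. All 11 luminal prostate markers on the list passed the count filter. So did 3 of 8 measured markers of other cell types, so passing it does not identify the cell type. The summed level of the 11 luminal markers was 5360 to 6450 CPM (read counts scaled to library size, with TMM factors) in DMSO and 2730 to 3750 CPM in PBKi. By edgeR at an adjusted p under 0.05, 7 of the 11 were lower and 1 higher, against 21.5% and 20.1% of all genes tested. Among 8 measured markers of basal, leukocyte and stromal cells, TP63 had 3 reads in all DMSO libraries and 4 in all PBKi libraries, PTPRC had 3 and 8, and KRT5 had 0 and 25, while KRT14 fell (log2 fold change -0.73, adjusted p = 0.0126 by edgeR). KRT14 rested on 14 to 38 reads per DMSO library and 6 to 20 per PBKi library, and the groups overlapped. The KRT14 call was lost with lanes 6 to 8 only, with replicates 1 to 3 only and with replicates 4 to 6 only. ACTA2 had 59 reads in all DMSO libraries and 99 in all PBKi libraries. It was not called (log2 fold change 0.64, adjusted p = 0.0957 by edgeR). With the replicate number as a block, and without PBKi replicate 4, ACTA2 was called higher. COL1A1 was at 18.7 CPM in DMSO and 19.8 CPM in PBKi on average and made up most of the summed level of these markers, which was 19.2 to 24.5 CPM in DMSO and 18.5 to 23.9 CPM in PBKi. The part of these shifts in the receptor values was not tested.

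TNFRSF19 was the member that differed most, so the sequence upstream of its starts is shown first, with that of TNFRSF21 beside it. TNFRSF21 had the highest fitted log2 fold change, 0.89 against 0.88 for TNFRSF12A, a difference within their standard errors. The sequences are the 250 bases upstream of RefSeq starts, from a table made on GRCh38.p14 and placed on GRCh37 by exact match, and 6 of the 10 members had an entry (TNFRSF19, TNFRSF1A, TNFRSF21, TNFRSF25, FAS and LTBR). Capitals mark matches on either strand to 5 motifs: AGAACA (the core of androgen receptor elements), TGANTCA (AP-1), CACGTG (E-box), GGGCGG (GC box) and the NF-kB consensus. No marked matches overlap. TNFRSF19 has an upstream start on the plus strand of chromosome 13 and a downstream start in the same gene.
TNFRSF19 upstream start, chr13:24144301-24144550, plus strand: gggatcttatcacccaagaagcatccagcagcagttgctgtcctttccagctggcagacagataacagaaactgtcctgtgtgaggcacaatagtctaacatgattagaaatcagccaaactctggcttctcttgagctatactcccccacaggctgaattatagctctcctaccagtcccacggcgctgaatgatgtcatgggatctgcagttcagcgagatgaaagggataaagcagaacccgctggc
TNFRSF19 downstream start, chr13:24153249-24153498, plus strand: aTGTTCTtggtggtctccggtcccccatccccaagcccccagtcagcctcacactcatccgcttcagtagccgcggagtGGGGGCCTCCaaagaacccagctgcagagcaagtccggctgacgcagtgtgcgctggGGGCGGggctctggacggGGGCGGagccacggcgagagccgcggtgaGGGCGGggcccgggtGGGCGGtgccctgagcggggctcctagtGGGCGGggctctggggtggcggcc
TNFRSF21, chr6:47277642-47277891, minus strand: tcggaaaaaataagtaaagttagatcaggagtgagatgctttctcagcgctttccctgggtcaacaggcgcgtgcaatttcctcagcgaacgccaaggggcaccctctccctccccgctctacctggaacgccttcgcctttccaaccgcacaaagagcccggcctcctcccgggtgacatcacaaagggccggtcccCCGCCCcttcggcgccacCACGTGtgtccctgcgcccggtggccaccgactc

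The TNFRSF19 windows differed in composition. The upstream one had a GC content of 49.6%, 4 CpG dinucleotides and no match to any of the 5 motifs. The downstream one had a GC content of 72.4% and 20 CpG dinucleotides, with GC boxes beginning 114, 96, 67, 52 and 24 bases before the start, an NF-kB consensus match beginning 171 bases before it and an AGAACA match on the minus strand beginning 249 bases before it. The TNFRSF21 window had a GC content of 62.0%, 20 CpG dinucleotides, a GC box 52 bases and an E-box 34 bases before the start. Of 35116 windows of this length in the table, 12.4% held AGAACA, 6.57% TGANTCA, 6.34% CACGTG, 42.6% GGGCGG and 9.96% the NF-kB consensus. Such matches are letters in a window and not sites of binding. The counts are per gene, so they do not say which TNFRSF19 start was used.

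TNFRSF19 (ENSG00000127863) spans 24144509 to 24250243 of chromosome 13 in GRCh37, the build of all positions here, on the plus strand. Its transcript was measured at a lowest, median and highest level of 211.8, 233.8 and 279.0 CPM over the 6 DMSO libraries and at 52.7, 87.9 and 113.4 CPM over the 6 PBKi libraries. Every PBKi library thus lay below every DMSO library, and PBKi was lower in 6 of 6 same-numbered pairs. Group means were 238 ± 26.0 CPM for DMSO and 83.95 ± 22.5 CPM for PBKi (SD, n = 6 each), so that PBKi was at 35.2% of DMSO. The log2 fold change was -1.51 (standard error 0.14), and of the 14505 genes tested 10 had a lower one. In bulk RNA, fewer cells with a transcript cannot be told apart from less of it per cell. The gene shares no exon bases with another annotated gene, and 2140 to 6545 reads per library in DMSO and 942 to 2156 in PBKi lay behind these values.

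The spread of TNFRSF19 within a group was larger after treatment, with a coefficient of variation of 10.9% in DMSO and 26.8% in PBKi. PBKi replicate 3, which had the highest share of reads outside genes, was the lowest at 52.7 CPM, and PBKi replicate 5 was the highest. However, PBKi replicate 6, which had the next highest share (8.83%), was at 96.6 CPM. In replicates 1 to 3 the PBKi libraries lay between 52.7 and 79.6 CPM (log2 fold change -1.75, standard error 0.10), and in replicates 4 to 6 between 96.2 and 113 CPM (-1.33, standard error 0.092). The DMSO libraries lay between 212 and 236 CPM in the first set and between 232 and 279 CPM in the second. Both groups were thus higher in replicates 4 to 6, with a single overlap between the sets in DMSO. The labels do not call these sets batches, and the split was chosen with earlier results of these libraries known. Without PBKi replicate 3 the log2 fold change was -1.40.

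**Figure D1:**
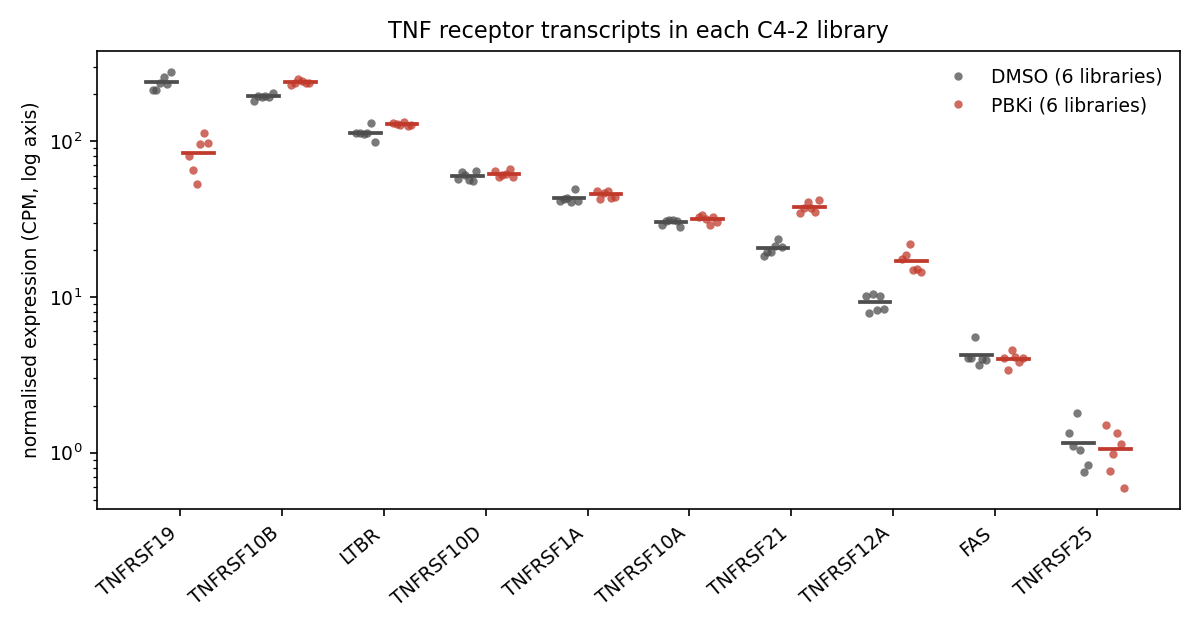
Expression of the 10 TNF receptor members in each library, in CPM on a log axis, with DMSO and PBKi side by side, a point per library (n = 6 per group) and a bar at the group mean. TNFRSF19 lies between 211.8 and 279.0 CPM in DMSO and between 52.7 and 113.4 CPM in PBKi, whereas TNFRSF21, TNFRSF12A and TNFRSF10B lie higher in every PBKi library than in every DMSO library.

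By the threshold used for all genes (the quasi-likelihood test of edgeR, Benjamini-Hochberg adjusted p under 0.05), 4 of the 10 members were called higher in PBKi and 1 lower, where 20.1% of all genes tested were called higher and 21.5% lower (41.7% in either direction). In 3 members every PBKi library was above every DMSO library and in 1 every one was below, where 10.5% and 9.68% of genes had such ranges. With a log2 fold change of at least 0.5 in size as well, 2 members were higher and 1 lower, where 8.81% of genes were higher and 4.32% lower. Since the list was drawn up on this contrast, nothing is read from these shares. The median log2 fold change was 0.073 over the 10 members and -0.012 over all genes tested.

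TNFRSF21 (ENSG00000146072), also called death receptor 6, lies on the minus strand of chromosome 6 from 47199268 to 47277641. It was at 18.4, 20.2 and 23.6 CPM (lowest, median, highest) in DMSO and at 34.6, 37.3 and 41.7 CPM in PBKi, and the groups did not overlap. The means were 20.5 ± 1.86 CPM and 37.7 ± 2.93 CPM (SD, n = 6 each), a 1.84-fold higher level (log2 fold change 0.89, standard error 0.07). Its lowest PBKi library held 460 reads. Its DMSO levels were lower in replicates 1 to 3 (18.4 to 19.4 CPM) than in replicates 4 to 6 (21.0 to 23.6 CPM), while its PBKi levels overlapped between these sets (34.6 to 40.7 and 34.9 to 41.7 CPM). The log2 fold change was 0.99 in the first set and 0.79 in the second.

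TNFRSF12A (ENSG00000006327), also called Fn14, is the receptor for TWEAK and lies on the plus strand of chromosome 16 from 3068446 to 3072384. It was at 7.92, 9.26 and 10.5 CPM in DMSO and at 14.4, 16.3 and 21.8 CPM in PBKi, again with no overlap. The means were 9.23 ± 1.16 CPM and 17.0 ± 2.81 CPM (SD, n = 6 each), 1.85-fold (log2 fold change 0.88, standard error 0.11). The 3 PBKi libraries of replicates 1 to 3 (17.4 to 21.8 CPM) were above those of replicates 4 to 6 (14.4 to 15.2 CPM). PBKi replicate 3 was the highest for TNFRSF12A and the lowest for TNFRSF19, and without it the TNFRSF12A log2 fold change was 0.79.

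The receptors for TRAIL form a cluster on chromosome 8, with the 3 members of the list on the minus strand, and resemble each other in sequence, so reads shared among them are uncertain. TNFRSF10B (ENSG00000120889, 22877646 to 22926544), the death receptor DR5, was at 181.4, 193.4 and 204.2 CPM in DMSO and at 227.7, 237.4 and 250.4 CPM in PBKi. The groups did not overlap, although the difference was small, with means of 193 ± 7.29 and 238.5 ± 7.68 CPM (SD, n = 6 each), 1.23-fold (log2 fold change 0.30, standard error 0.045). TNFRSF10A (ENSG00000104689, 23047965 to 23082615), the death receptor DR4, was at 28.2, 30.9 and 31.1 CPM in DMSO and at 29.0, 32.1 and 33.3 CPM in PBKi (log2 fold change 0.063, standard error 0.055). TNFRSF10D (ENSG00000173530, 22993101 to 23021540), a decoy receptor with a truncated death domain, was at 55.6, 58.8 and 64.5 CPM in DMSO and at 59.1, 60.8 and 66.6 CPM in PBKi (log2 fold change 0.053, standard error 0.053). For TNFRSF10A and TNFRSF10D the groups overlapped, although 4 of 6 PBKi libraries had more TNFRSF10A than any DMSO library. TNFRSF10C, the other decoy receptor, lies between TNFRSF10B and TNFRSF10D on the plus strand and was at 0.903 ± 0.276 CPM in DMSO and 1.03 ± 0.358 CPM in PBKi (SD, n = 6 each). Thus within this cluster only TNFRSF10B had separate ranges.

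Of the exons of TNFRSF10B, 377 bases (7.52%) overlap RHOBTB2 on the opposite strand, and TNFRSF10A shares 224 bases with an antisense RNA and 266 with a divergent transcript. The strand setting of the counting was not given in the sources used here, so reads from such overlaps may be lost to either gene or assigned to the wrong one.

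TNFRSF1A and LTBR are neighbours on chromosome 12. LTBR (ENSG00000111321, plus strand, 6484211 to 6500737), the lymphotoxin beta receptor, was at 99.2, 112.1 and 129.6 CPM in DMSO and at 124.5, 127.4 and 132.9 CPM in PBKi. The groups overlapped only through DMSO replicate 5 at 129.6 CPM, and the log2 fold change was 0.18 (standard error 0.055). TNFRSF1A (ENSG00000067182, minus strand, 6437923 to 6451280), the main receptor for TNF, was at 40.9, 42.0 and 49.2 CPM in DMSO and at 42.5, 45.3 and 48.1 CPM in PBKi (log2 fold change 0.083, standard error 0.057). Its highest library was also DMSO replicate 5, so that this library held the top DMSO level of both neighbours. The same library held the top DMSO level of TNFRSF21 on chromosome 6. SCNN1A, a sodium channel subunit gene that lies between TNFRSF1A and LTBR, was at 25.2 ± 2.17 CPM in DMSO and 29.0 ± 1.63 CPM in PBKi (SD, n = 6 each). Its top DMSO level was in replicate 6, and it shares 422 exon bases (6.86%) with LTBR on the opposite strand.

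FAS and TNFRSF25 were the members with the fewest reads. FAS (ENSG00000026103, plus strand of chromosome 10, 90750414 to 90775542), the receptor for FAS ligand, was at 3.67, 4.04 and 5.55 CPM in DMSO and at 3.39, 4.06 and 4.58 CPM in PBKi (log2 fold change -0.095, standard error 0.12). TNFRSF25 (ENSG00000215788, minus strand of chromosome 1, 6520846 to 6526235), death receptor 3, was at 0.757, 1.07 and 1.8 CPM in DMSO and at 0.591, 1.06 and 1.5 CPM in PBKi (log2 fold change -0.22, standard error 0.24). In both the groups overlapped. TNFRSF25 rested on 7 to 50 reads per library, and its log2 difference was -0.47 over the first 3 replicates but 0.25 over the other 3, so no direction can be given at this depth. Without DMSO replicate 3, the log2 difference of TNFRSF25 was 0.015 and that of FAS 0.033, so the sign of both rested on that library. FAS shares 380 exon bases (10.7%) with ACTA2, and TNFRSF25 shares 383 (8.98%) with ESPN, in both cases on the opposite strand. FAS also shares 917 exon bases (25.7%) with a noncoding RNA on the opposite strand that the count data do not list.

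Levels were compared between receptors per length, as RPKM (reads per kilobase of exon, scaled to library size as for CPM). In DMSO the order was TNFRSF19 (46.6 ± 5.09 RPKM, SD, n = 6), TNFRSF10B (38.6 RPKM), LTBR (18.4), TNFRSF10D (16.8), TNFRSF10A (10.3), TNFRSF1A (10.2), TNFRSF21 (5.71), TNFRSF12A (5.12), FAS (1.19) and TNFRSF25 (0.269). LTBR and TNFRSF10D, TNFRSF10A and TNFRSF1A, and TNFRSF21 and TNFRSF12A each differed from their neighbour by no more than about the spread between libraries. In PBKi the order began with TNFRSF10B (47.6 RPKM), LTBR (20.8) and TNFRSF10D (17.5), and TNFRSF19 came next with 16.4 ± 4.40 RPKM (SD, n = 6), no further from TNFRSF10D than its own spread. TNFRSF21 reached 10.5 RPKM and TNFRSF12A 9.46 RPKM, close to TNFRSF10A and TNFRSF1A, both at 10.8 RPKM.

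The make-up of the 10 transcripts therefore differed more than their sum. The summed level was 153 ± 5.86 RPKM in DMSO and 145 ± 3.2 RPKM in PBKi (SD, n = 6 each). TNFRSF19 made up 27.9%, 29.5% and 33.9% (lowest, median, highest) of this sum in DMSO and 7.12%, 11.8% and 14.8% in PBKi, while the share of TNFRSF10B was 25.2 ± 0.566% and 32.8 ± 1.1% (SD, n = 6 each). The ratio of TNFRSF10B to TNFRSF19 in RPKM was 0.747 to 0.941 over the DMSO libraries and 2.14 to 4.85 over the PBKi libraries. The most abundant receptor transcript of the list was therefore TNFRSF19 in every DMSO library and not in any PBKi library.

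**Figure D2:**
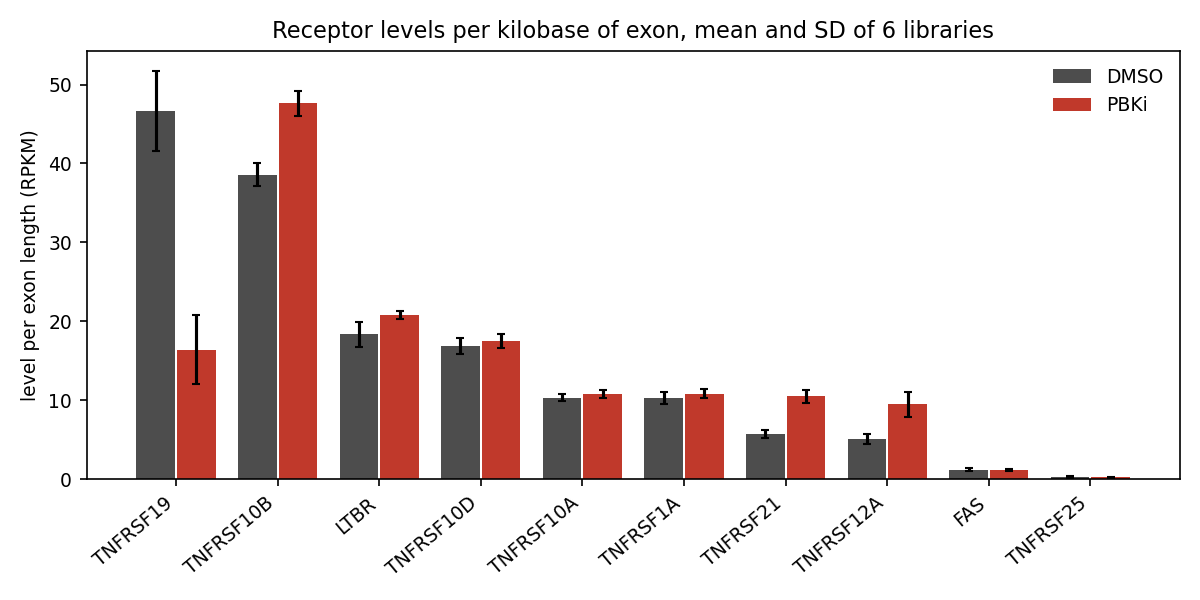
Level per length of the 10 members, as mean RPKM on a linear axis with the SD over 6 libraries as error bars, for DMSO and PBKi. TNFRSF19 is the highest in DMSO at 46.6 RPKM and lies at 16.4 RPKM in PBKi, below TNFRSF10B, LTBR and TNFRSF10D.

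Of 19 further receptors of the superfamily, 8 passed the count filter, TNFRSF9 only through PBKi. Of the other 7, 0 were called higher and 1 lower (edgeR's quasi-likelihood test, with 20.1% and 21.5% of all genes called in those directions). TNFRSF9, also called 4-1BB and known as a costimulatory receptor of T cells, had 11 reads in the 6 DMSO libraries and 387 in the 6 PBKi libraries, a ratio of 34.4 (95% counting interval 19.0 to 69.5). It had at most 4 reads in any DMSO library and so passed the count filter only through the PBKi libraries, where it is high, and its test is not given for that reason. Its level was 0 to 0.208 CPM in DMSO and 2.54 to 5.68 CPM in PBKi. TNFRSF18, also called GITR, fell from 7.32 ± 1.43 CPM in DMSO to 4.44 ± 1.10 CPM in PBKi (SD, n = 6 each, log2 fold change -0.71, standard error 0.16, adjusted p = 2.15e-03 by edgeR), without overlap. The other 6 did not pass, with log2 fold changes of 0.12 for TNFRSF10C, 0.05 for TNFRSF11A (RANK), -0.02 for RELT, -0.05 for CD40, -0.09 for TNFRSF14 (HVEM) and -0.44 for TNFRSF8 (CD30).

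Another 11 receptors had too few reads to test. TNFRSF1B, the second TNF receptor, had 74 reads in DMSO and 53 in PBKi (ratio 0.701, 95% counting interval 0.483 to 1.01). TNFRSF11B, the soluble decoy osteoprotegerin, had 15 and 50 reads (ratio 3.26, interval 1.8 to 6.25). TNFRSF6B and TNFRSF13B had 0 reads in all 12 libraries, which allows a level of up to 0.0151 CPM. These intervals and limits cover counting error only.

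Of 18 ligands of the superfamily, 7 were tested. TNFSF18 passed the count filter only through PBKi, where it is high, and of the other 6 ligands 3 rose and 1 fell (median log2 fold change 0.188), where 20.1% of all genes were called higher and 21.5% lower. TNFSF18, the ligand of TNFRSF18, had 7 reads in DMSO and 239 in PBKi (ratio 33.4), with at most 2 reads in any DMSO library. TNFSF15, the ligand of TNFRSF25, rose from 1.44 ± 0.503 to 2.94 ± 0.502 CPM (SD, n = 6 each, adjusted p = 5.10e-04 from the same edgeR test). TNFSF13, also called APRIL, rose from 9.51 ± 1.01 to 14.6 ± 1.73 CPM (SD, n = 6 each, adjusted p = 3.91e-05 from the same edgeR test). TNFRSF18 thus fell where TNFSF18 had more reads. TNFSF15 rose, while no direction can be given for its receptor TNFRSF25 at this depth. TNFSF9, the ligand of TNFRSF9, was at 1.53 ± 0.234 and 1.58 ± 0.263 CPM (SD, n = 6 each). Whether receptor and ligand moved alike in these pairs was not tested. TNFSF4 also rose (log2 fold change 0.34, adjusted p = 0.0174 from the edgeR test). EDA fell by 0.18 on the log2 scale (adjusted p = 0.0339 from the edgeR test), a call that was lost when any of DMSO replicates 1, 2, 5 and 6 or PBKi replicates 3 and 5 was left out. TNFSF4 and EDA were named after their values were seen.

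Ligands of the listed receptors were otherwise scarce. TNFSF10 (TRAIL) was at 1.78 ± 0.404 CPM in DMSO and 1.35 ± 0.339 CPM in PBKi (SD, n = 6 each, log2 fold change -0.43, adjusted p = 0.0942 from the edgeR test). TNF itself, with 2 reads in DMSO and 19 in PBKi (ratio 9.29, 95% counting interval 2.24 to 82.3), fell short of the count filter. LTB, a subunit of the LTBR ligand, had 0 and 9 reads, a ratio whose 95% counting interval begins at 1.93. TNFSF12 (TWEAK), the ligand of TNFRSF12A, had 29 and 26 reads (ratio 0.877, interval 0.496 to 1.54), and FASLG had 2 and 3.

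**Figure D3:**
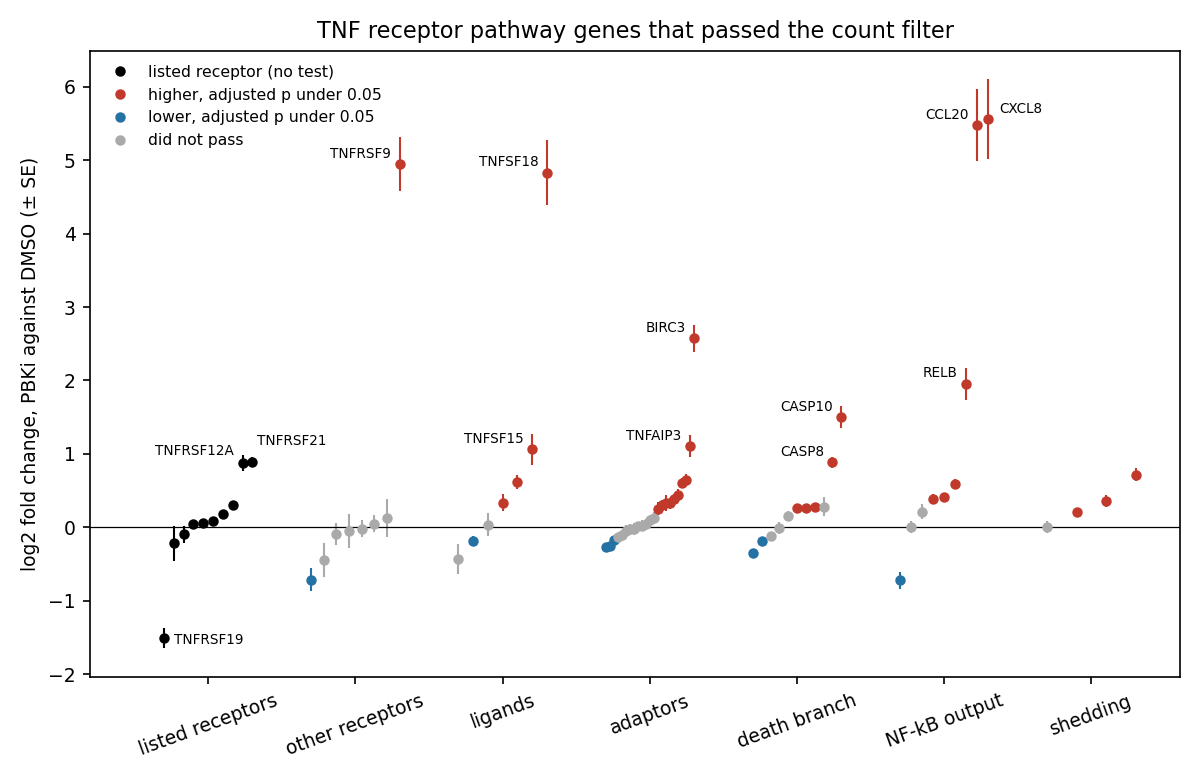
Log2 fold change of PBKi against DMSO, with its standard error, for each gene of the receptor, ligand, adaptor, death branch, NF-kB output and shedding lists that passed the count filter. TNFRSF19 is the lowest point at -1.51, and TNFRSF9, TNFSF18, CCL20 and CXCL8 lie above 4.8, all from 11 reads or fewer in DMSO, having passed the filter only through PBKi.

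Adaptors and ubiquitin enzymes join the receptors to NF-kB and JNK. Of 25 listed, 23 were tested, of which 10 rose and 3 fell (median log2 fold change 0.106), where 20.1% of all genes were called higher and 21.5% lower. The largest rise was that of BIRC3, a ubiquitin ligase recruited by TRAF2, which was at 0.757, 1.96 and 3.02 CPM (lowest, median, highest) in DMSO and 8.39, 10.9 and 14.5 CPM in PBKi (log2 fold change 2.57, standard error 0.19, adjusted p = 8.67e-09 by edgeR). TNFAIP3, the deubiquitinase A20, rose from 1.79 ± 0.135 to 3.87 ± 0.820 CPM (SD, n = 6 each, adjusted p = 1.73e-05 from the edgeR test). MAP3K14, the NIK kinase through which LTBR and TNFRSF12A signal, rose by a log2 fold change of 0.65 and MAP3K5, the ASK1 kinase, by 0.61. In 5 of the 23, BIRC3, TNFAIP3, MAP3K14, MAP3K5 and RIPK1, every PBKi library was above every DMSO library. In 1, OTULIN, every one was below. Of all genes tested, 10.5% and 9.68% had such ranges. RIPK1 was named after its values were seen. TRAF4, OTULIN and CHUK fell, by 0.26, 0.27 and 0.17 on the log2 scale, and were named after their values were seen. The CHUK call was lost when any of DMSO replicates 1, 2, 3 and 6 or PBKi replicates 3 and 4 was left out.

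In the death branch, 5 of 11 tested genes rose and 2 fell (median log2 fold change 0.262), against 20.1% and 21.5% of all genes. CASP8, the initiator caspase of the death receptors, rose from 23.1 ± 1.49 to 42.8 ± 5.23 CPM (SD, n = 6 each, log2 fold change 0.89, adjusted p = 9.50e-08 from the edgeR test). CASP10, its close relative, rose from 2.52 ± 0.579 to 7.14 ± 1.33 CPM (SD, n = 6 each, log2 fold change 1.5, adjusted p = 5.77e-07 from the edgeR test). FAF1, a FAS-associated factor, fell from 152 ± 4.89 to 119 ± 4.61 CPM (SD, n = 6 each, adjusted p = 8.30e-06 from the edgeR test), and BID fell by 0.19 on the log2 scale. Both of these were named after their values were seen. The call of BID was lost without any of DMSO replicates 1, 3, 4 and 6 or PBKi replicates 1, 2 and 3. FAF1 kept its call in every alternative except the minimum log2 fold change of 0.5, which it does not reach.

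Transcripts known to rise when TNF receptors signal to NF-kB comprised 13 genes, of which 9 were tested. CXCL8 and CCL20 had at most 2 reads in any DMSO library and passed the count filter only through PBKi, where they are high. Of the other 7, 4 rose and 1 fell (median log2 fold change 0.38), against 20.1% and 21.5% of all genes. The chemokine CXCL8 had 4 reads in DMSO and 238 in PBKi (ratio 58.2, 95% counting interval 22.4 to 215), and the chemokine CCL20 had 2 and 128 (ratio 62.6, interval 17.0 to 523). RELB, an NF-kB subunit, rose from 0.971 ± 0.399 to 3.61 ± 0.566 CPM (SD, n = 6 each, adjusted p = 1.58e-06 from the edgeR test) and ICAM1, an adhesion molecule, from 22.1 ± 1.67 to 33.0 ± 2.64 CPM (SD, n = 6 each, adjusted p = 3.12e-06 from the edgeR test). TNFAIP2 fell from 8.76 ± 0.576 to 5.29 ± 1.12 CPM (SD, n = 6 each, adjusted p = 1.72e-04 from the edgeR test). The 4 that rose were above, and TNFAIP2 was below, DMSO without overlap, as were 10.5% and 9.68% of all genes. IL6 had 0 and 1 reads and CXCL1 none.

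**Figure D4:**
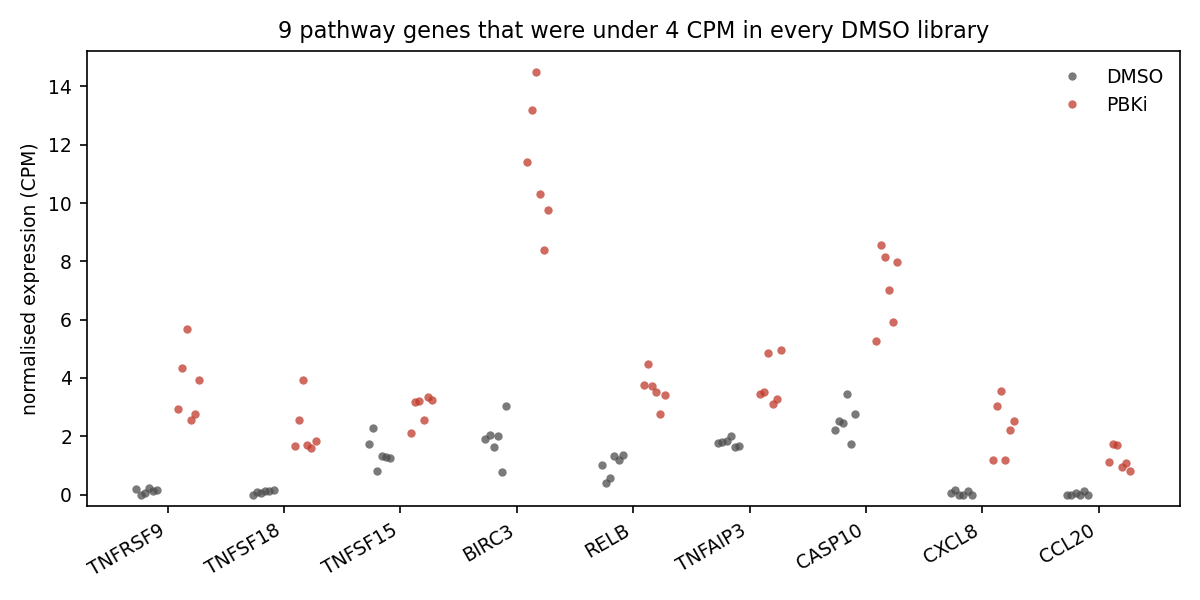
Expression in CPM of 9 pathway genes that lay under 4 CPM in every DMSO library, a point per library (n = 6 per group). TNFRSF9 lies between 0 and 0.208 CPM in DMSO and between 2.54 and 5.68 CPM in PBKi, and BIRC3 between 0.757 and 3.02 CPM in DMSO and between 8.39 and 14.5 CPM in PBKi.

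Several receptors are shed from the cell surface by proteases. All 4 genes of the shedding list were tested, of which 3 rose and 0 fell, against 20.1% and 21.5% of all genes. The number that fell was also 0 at an unadjusted p under 0.05 by edgeR, and 0 by DESeq2 and by limma-voom. ADAM17, the protease that cleaves TNF and TNFRSF1A, rose from 20.3 ± 1.21 to 33.2 ± 4.71 CPM (SD, n = 6 each, log2 fold change 0.72, adjusted p = 3.52e-06 from the edgeR test). ADAM10 rose by a log2 fold change of 0.21 and RHBDF1 by 0.36. The ADAM10 call was lost with replicates 4 to 6 only (adjusted p = 0.188 by edgeR).

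Lists known in connection with transcription of the members were also counted, against the same 20.1% of all genes called higher and 21.5% lower. Of 10 Wnt output genes, 6 were tested, of which LEF1 (log2 fold change 0.49) and RNF43 (0.28) rose, while AXIN2 was at 0.03. The RNF43 call was lost with lanes 6 to 8 only (adjusted p = 0.0623 by edgeR) and with replicates 4 to 6 only (adjusted p = 0.44 by edgeR). In the fit without covariates 0 of the 6 tested Wnt output genes fell (0 also at an unadjusted p under 0.05 by edgeR, and 0 by DESeq2 and by limma-voom), but this depended on the setting. With the replicate number as a block, NKD1 (log2 fold change -0.39, adjusted p = 0.0392 by edgeR) and ZNRF3 (-0.17, adjusted p = 0.021) were called lower, as they were when the fit held a term separating replicates 1 to 3 from the others. NKD1 was also called lower without PBKi replicate 6 (-0.54), and ZNRF3 with replicates 1 to 3 only (-0.19). NOTUM, with 44 reads in DMSO and 15 in PBKi, was called lower without the count filter. These 3 genes were named after their values were seen. TNFRSF10B and FAS are known p53 targets, and of 10 other p53 output genes 3 rose and 3 fell. CDKN1A, a cell cycle inhibitor, rose from 51.0 ± 4.38 to 97.4 ± 6.60 CPM (SD, n = 6 each, adjusted p = 2.94e-09 from the edgeR test). On the log2 scale MDM2 (0.21) and PHLDA3 (0.30), named after their values were seen, also rose, whereas BBC3 (-0.44), FDXR (-0.31) and SESN1 (-0.30) fell. The calls of MDM2, PHLDA3, FDXR and SESN1 were lost with replicates 4 to 6 only. PHLDA3 also lost its call when any of DMSO replicates 1 and 3 or PBKi replicates 4, 5 and 6 was left out. The BBC3 call was lost with replicates 1 to 3 only. Of 6 stress response genes 3 rose and 2 fell. Among them DDIT3, a factor known to act on TNFRSF10B, rose from 55.4 ± 7.95 to 112 ± 13.4 CPM (SD, n = 6 each, adjusted p = 1.40e-07 from the edgeR test), and ATF3 from 43.6 ± 6.25 to 139 ± 18.4 CPM (SD, n = 6 each, adjusted p = 5.86e-10 from the edgeR test).

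The genes whose log2 CPM was most like that of TNFRSF19 over the 12 libraries were GCNT1, PIK3AP1, NETO1, DUSP4 and PHLDA1, out of 9997 genes whose mean log2 CPM was 3 or more. Pearson's r was 0.99, 0.989, 0.985, 0.982 and 0.982, in that order. These values share the difference between the groups, and after the group means were removed r was 0.911, 0.914, 0.886, 0.878 and 0.851. GCNT1, an enzyme that branches O-linked glycans, was at 109 ± 13.2 CPM in DMSO and 48.6 ± 7.56 CPM in PBKi (SD, n = 6 each). PIK3AP1, an adaptor for PI3-kinase, was at 53.03 ± 4.97 and 24.8 ± 3.47 CPM, and DUSP4, a MAP kinase phosphatase, at 38.3 ± 5.63 and 15.8 ± 4.11 CPM (SD, n = 6 each). Their log2 fold changes were -1.17 for GCNT1, -1.09 for PIK3AP1, -0.58 for NETO1, -1.28 for DUSP4 and -1.46 for PHLDA1. The genes were picked for this likeness, so r is a description without a p-value.

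**Figure D5:**
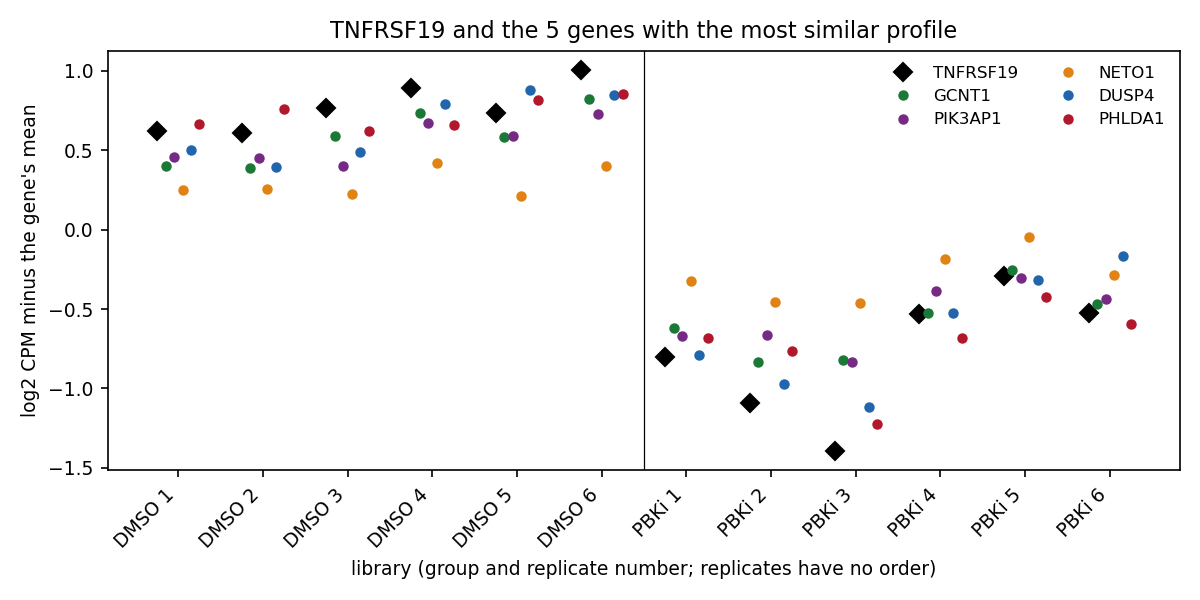
Log2 CPM of TNFRSF19 and of the 5 genes most like it, each relative to its own mean over the 12 libraries, by library. All 6 genes are lower in PBKi, and PBKi replicate 3 is the lowest for TNFRSF19.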

How the data were processed

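RNAseq was measured in 12 libraries of C4-2 cells (6 DMSO, 6 PBKi). Per the paper's methods, single-end reads were mapped on GRCh37 by the authors using TopHat (2.0.4) and counted using HTSeq (0.5.3p9), and the deposited values are counts per gene and sequencing lane, without normalisation. RNA extraction is given as miRNeasy from sorted cells in the labels and as Allprep in the methods. Lanes were summed (47 files; 3 lanes for DMSO replicate 5, 4 otherwise).

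Genes that reached 10 counts in 6 or more samples (14505) were fitted with edgeR's quasi-likelihood test (edgeR 4.0.16, R 4.3.3) after TMM normalisation, with all 12 samples and no covariate, and p-values were adjusted over all genes by Benjamini-Hochberg (0.05). The authors used DESeq (1.10.1). CPM is TMM-scaled, and log2 CPM used a prior count of 2. RPKM used GENCODE 44 exon lengths on GRCh37. The members and lists were chosen with earlier results of these data known. Of the lists, IKBKG and PECAM1 had no matching row. Genes named were all members, receptors that passed the filter, up to 6 called genes per list whose log2 fold change was 0.5 or more in size (or 2 members of a list with fewer), ligands TNF, TNFSF10, TNFSF12 and FASLG, genes between neighbouring members, and the 5 genes most like TNFRSF19. Dixon's test was applied to each member and group. The procedure was tested on simulated data. Alternatives were DESeq2 (1.42.0), RLE factors, limma-voom (3.58.1), other count filters, lanes 6 to 8, a replicate block, a covariate for replicates 1 to 3 against 4 to 6, replicates 1 to 3 or 4 to 6 only, a minimum fold change and leaving out each sample.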

Additional observations from a re-analysis of the deposited data

Results flagged for a closer look

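Among the 20 groups of 6 libraries tested by Dixon's criterion, 10 members in DMSO and 10 in PBKi, 2 held a library far from the others, and chance alone gives about 1 in 20. TNFRSF1A was at 49.2 CPM in DMSO replicate 5, where the other DMSO libraries lay between 40.9 and 42.8 CPM. This library also had the highest DMSO level of LTBR and of TNFRSF21, and was counted in 3 lanes. FAS was at 5.55 CPM in DMSO replicate 3, where the other DMSO libraries lay between 3.67 and 4.08 CPM.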

How the results depend on the processing

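Directions of TNFRSF19, TNFRSF21, TNFRSF12A, TNFRSF10B and LTBR were kept under every alternative, and the members called remained 4 higher and 1 lower unless stated here. Without DMSO replicate 5, TNFRSF1A was also called, so leaving out single samples gave 4 to 5 members higher and 1 to 1 lower. With replicates 4 to 6 only, LTBR lost its call. In that setting the log2 fold changes of TNFRSF25 and FAS, neither of them called, turned to 0.249 and 0.054, and without DMSO replicate 3, in which FAS stood apart, they were 0.015 and 0.033.

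The counts per list in this section include TNFRSF9, TNFSF18, CXCL8 and CCL20, which passed the count filter only through PBKi. With them, the main fit had 1 other receptor, 4 ligands and 6 NF-kB output genes higher. Over all genes, leaving out single samples gave 2577 to 3342 higher and 2618 to 3216 lower. With replicates 4 to 6 only, 1273 genes were higher and 1207 lower. In that setting adaptors were 5 higher and 0 lower, death branch genes 3 higher and 1 lower, ligands 0 lower, and the Wnt, shedding, p53 and stress lists together 6 higher and 1 lower, where the main counts were 11 and 5. With log2 fold changes of 0.5 or more in size, 1278 genes were higher and 626 lower, with 2 members higher, 0 ligands lower, 4 adaptors higher and 0 lower, 2 death branch genes higher and 0 lower, and 4 and 0 of the joint lists. Without a count filter, 2 other receptors were higher (TNFRSF11B was added), 6 ligands were higher (TNF and LTB were added) and 0 lower, and 1 death branch gene was lower. With at least 50 counts, 0 other receptors, 2 ligands and 3 NF-kB output genes were higher, as fewer genes were tested. With lanes 6 to 8, 0 ligands and 1 death branch gene were lower, and with replicates 1 to 3 only, 0 ligands were lower. For the changes other than those under the count filters and fold threshold the cause was not tested. Leaving out single samples gave 0 to 2 ligands lower, 5 to 6 death branch genes higher and 1 to 2 lower, 8 to 10 adaptors higher and 2 to 4 lower, 6 to 7 NF-kB output genes higher, and 10 to 13 higher and 4 to 6 lower of the joint lists.

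With the replicate number as a block, 3485 genes were higher and 3803 lower, 4 members were higher and 1 lower, and the TNFRSF19 log2 fold change was -1.54. Same-numbered samples had deviations correlated at 0.0887 to 0.299, with 5 of 6 pairs over 0.1, and 8 of 12 samples correlated best with their own number. The labels do not say what the number marks. Depth limits statements on TNFRSF25, FAS and the untested ligands.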
